A study of Mus musculus with 6 samples.

Results

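The genes described here are 38 genes of homologous recombination, the Fanconi pathway and the DNA damage checkpoint, chosen by name from the count table and followed in sorted germinal center (GC) B cells of WT and Il21r-/- mice. All 38 were found among the 27179 genes of the table by their Entrez identifiers, and all 38 passed the limit on low expression that left 11005 genes for testing. By role, 12 are recombination mediators and paralogs, 9 are Fanconi anaemia genes, 8 act in the dissolution and resolution of joint DNA molecules, and 9 act in break sensing, end resection and the checkpoint. The samples were 6 RNA-seq libraries, 1 of each genotype on days 7, 10 and 14 after an intraperitoneal dose of the antigen NP-KLH in alum. WT cells carry the IL-21 receptor and Il21r-/- cells lack it, both on the C57Bl/6 background after 8 to 12 generations of backcrossing. The study states that its experiments, with 1 named exception, used irradiated Ly5.1 hosts given WT or Il21r-/- bone marrow, and the cells that survive irradiation in such hosts carry the receptor in both groups. The cells were sorted from spleen as B220+ cells that bound the hapten NP and carried IgG1, without CD38, CD138, Gr1, IgM or IgD, which are class-switched GC B cells. Ages are not given in the labels. The design text gives 1 mouse per library, whereas the methods and the description of the sort give several mice per genotype, so these sources differ on the number of mice behind a library, and a spread between libraries may be partly technical.

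A cut through both DNA strands can be mended from an intact copy by homologous recombination. MRN (MRE11, RAD50 and NBN) and CtIP (the product of Rbbp8) trim the ends, BRCA1 with BARD1, PALB2 and BRCA2 prepare the trimmed strand to pair with the copy, and BLM with its partners or a structure-selective nuclease separates the joined molecules. The Fanconi proteins start the repair of crosslinks between strands by placing ubiquitin on FANCD2 and FANCI, and then hand the break to recombination. Many of these genes are expressed mainly in S and G2 phase, when a sister copy is at hand. GC B cells divide rapidly and carry breaks from AID, the enzyme that mutates and switches their immunoglobulin genes.

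The transcription factors of the E2F family drive many genes of S phase, and sequences of the members are shown for that reason. RefSeq promoters (GRCm38.p6, 250 bases before to 50 after a start) were given for 29 of the 38 members. The E2F-type letters TTCCCGC, the variant TTGGCGC, the variant TTCGCGC or the variant TTGCCGC stood on either strand of 15 of these 29, or 51.7%, beside 20.3% of the 8529 tested genes with a promoter and 9.57% of all 32851 promoters. Members and tested genes were counted once each over all their starts, whereas the last share is over single promoters. In the 250 bases before the start alone the letters stood in 9 of 29, or 31.0%, beside 16.9% and 7.89%, and in the other 6 of the 15 the letters spanned or followed the start. With a further T in front, the letters stood in 6 of 29 members and 5.02% of tested genes. The 9 members with such letters that were later called higher in WT with day as a block are shown first, with 10 bases on each side where the window allows, read 5′ to 3′ on the strand of the gene and with the E2F-type letters or their complement in capitals.
Brca1: ctagcgctagGCGCCAAgcggccggtt
Brca2: ttaggccacaGCGGGAAacagacacac
Bard1: gccgctcagtTTCCCGCtcaggaagtt
Rad51ap1: ctggttttcgGCGGGAAttgaaaccgc
Fanci: gtggagtagaGCGGGAAttttggaagg
Brip1: ggggcgggagGCGCGAAttcatctgtg
Blm: atcatccttcTTGCCGCgcagagcgtg
Atm: agagccggaaGCGGGAAggcgtgcgta
Chek1: gcaggttttgGCGGGAA
These lie at chr11:101551918-101551944, chr5:150522443-150522469, chr1:71103164-71103190, chr6:126939559-126939585, chr7:79392346-79392372, chr11:86201181-86201207, chr7:80535124-80535150, chr9:53536640-53536666 and chr9:36726609-36726625, in the order printed. Brca2 and Fanci lie on the plus strand and the other 7 on the minus strand. The letters began 21 bases after the start in Brca1, 12 after it in Rad51ap1 and 4 before it in Brip1. The other members with a match were Chek2, Fancb, Fancg, Fancm, Rad51c and Rmi1, none of which was called, and the most matches, 3 each, were in Rad51c and Rmi1.
Rmi1: ccgagggagtTTGGCGCgattggagga
Fancg: tcttttcagtTTCCCGCggaaccgtct
These are chr13:58402614-58402640 on the plus strand and chr4:43010336-43010362 on the minus strand, and are shown because neither gene was called in any test. By this count 9 of 13 members that were called and have a promoter held the letters, and 6 of 16 that were not called. Before the start alone the counts were 3 of 13 and 6 of 16, and with the further T 2 of 13 and 4 of 16, so the order of called and not called turned with the search. A match is a run of letters and not a bound site, and no binding was measured here.

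The 250 bases before the start are shown for Brca1, the member with the largest genotype difference, and Rad54l, the member that was called by the additive fit, with CCAAT or its complement in capitals.
Brca1: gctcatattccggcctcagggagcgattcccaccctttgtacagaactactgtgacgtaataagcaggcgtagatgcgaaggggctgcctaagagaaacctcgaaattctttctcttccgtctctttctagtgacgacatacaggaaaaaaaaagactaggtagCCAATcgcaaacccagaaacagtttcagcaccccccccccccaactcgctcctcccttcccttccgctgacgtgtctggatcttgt
Rad54l: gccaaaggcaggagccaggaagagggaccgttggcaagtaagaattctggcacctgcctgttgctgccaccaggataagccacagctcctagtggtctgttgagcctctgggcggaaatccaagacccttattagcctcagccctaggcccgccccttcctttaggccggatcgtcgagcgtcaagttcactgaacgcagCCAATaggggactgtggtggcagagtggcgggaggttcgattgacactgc
They are chr11:101551956-101552205 and chr4:116123691-116123940, both on the minus strand. CCAAT began 86 bases before the start in Brca1 and 50 before it in Rad54l. CCAAT on either strand stood in 17 of the 29 member promoters, or 58.6%, and in 44.0% of those of tested genes. TTTGAA, the core of the CHR element found at many mitotic genes, stood in 3 of 29, or 10.3%, and in 14.6% of tested genes.

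Counts on genes ran from 21353438 to 27435124 per library. The targeted gene, Il21r, was at 345.8, 263.0 and 246.6 CPM (counts scaled to the TMM-normalized size of the library) in WT and at 105.8, 127.6 and 112.7 CPM in Il21r-/- on days 7, 10 and 14. All 6 B cell markers and all 8 GC B cell markers were over 1 CPM in every library. Of 8 T cell markers 7 were under 1 CPM in every library, the exception being Lck. The summed T cell markers were at 86.0 to 122 CPM in WT and 81.9 to 117 CPM in Il21r-/-, myeloid markers at 8.46 to 14.3 and 12.2 to 19.9 CPM, and erythroid markers at 9.92 to 19.0 and 4.80 to 33.6 CPM. No marker was at 0 in all libraries. B cell markers summed to 7439 to 9591 CPM in WT and 8847 to 11460 CPM in Il21r-/-, a lower sum in WT on each day. GC B cell markers summed to 3068 to 3706 CPM in WT and 2848 to 3518 CPM in Il21r-/-, a higher sum in WT on each day. Plasma cell markers summed to 224 to 261 CPM in WT and 307 to 328 CPM in Il21r-/-, most of it Xbp1. Irf4 was at 22.6, 21.7 and 22.6 CPM in WT and 21.6, 35.9 and 37.7 in Il21r-/-, lower in WT on days 10 and 14. Prdm1 (1.39, 1.83 and 1.59 CPM in WT and 0.262, 0.610 and 0.682 in Il21r-/-) and Sdc1, at under 1 CPM, were higher in WT on each day. Tnfrsf17, also at under 1 CPM, was lower in WT on day 7 and higher on the other days. Markers of naive or memory B cells summed to 435 to 949 CPM in WT and 779 to 1224 CPM in Il21r-/-, a lower sum in WT on each day. Of these, Fcer2a was at 392, 219 and 154 CPM in WT and 808, 789 and 510 in Il21r-/-, and Ighm went the other way, at 485, 377 and 255 CPM in WT and 288, 274 and 217 in Il21r-/-. The part of these in the results that follow was not tested, and fewer cells of a type and less RNA per cell cannot be told apart in bulk samples.

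The genotype comparison asks what loss of the IL-21 receptor changed in these cells. The 38 genes were mostly higher in WT. Over 3 days 35 of 38 log2 fold changes (WT over Il21r-/-, so that positive is higher in WT) were above 0, with a median of 0.30, where the median of all genes tested was -0.0097. The exceptions were Rmi1 at -0.092, Rad51d at -0.028 and Fancl at -0.021. On all 3 days 27 members, or 71.1%, were higher in WT, beside 25.4% of all genes tested, and 12 members had all 3 WT libraries above all 3 Il21r-/- libraries, beside 8.33% of all genes. In the additive fit, with terms for genotype and for day as a straight line, edgeR's quasi-likelihood test called 1 of 38 genes, Rad54l, beside 1.4% of all genes called higher in WT and 4.52% called higher in Il21r-/-. At an unadjusted p under 0.05 it had 15 members, and 2356 of the 11005 genes in either direction. DESeq2's Wald test on the same model called 5, namely Brca1, Rad51ap1, Rad54l, Rbbp8 and Chek1, beside 2.89% of all genes called higher in WT.

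The libraries of a day are a pair, 1 of each genotype. With day as a block, which lets each day have its own mean, 18 of 38 members, or 47.4%, were called, all 18 higher in WT, beside 9.33% of all genes called higher in WT and 13.6% called higher in Il21r-/-. Of the roles, 7 of 12 mediators and paralogs were called, 3 of 9 Fanconi genes, 4 of 8 genes of dissolution and resolution, and 4 of 9 genes of sensing and the checkpoint. These calls leaned on day 14. Without the WT library or without the Il21r-/- library of day 14, 2 members were called with the block, Brca1 and Rad54l in both cases, beside 2.94% and 3.49% of all genes called higher in WT. Without the WT library of day 10 the count was 9, beside 5.84% of all genes, and without the Il21r-/- library of day 10 it was 13, beside 6.4%. Without either library of day 7 it was 16, beside 7.84% and 7.88%. Leaving out the Il21r-/- library of day 10 from the additive fit raised its count from 1 to 19, while the share of all genes called higher in WT went from 1.4% to 8.47%. Leaving out any other library lowered the count to 0, beside 0.218% to 1.06% of all genes. The block leaves 2 residual degrees of freedom and the additive fit 3. Of the 18 members called with the block, all but Rad54l were not called in the additive fit. Their adjusted p-values there ran from 0.0619 (Chek1) to 0.503 (Brca2). In the text below, calls and adjusted p-values of single members over 3 days are from the day block unless the additive fit is named.

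**Figure D1:**
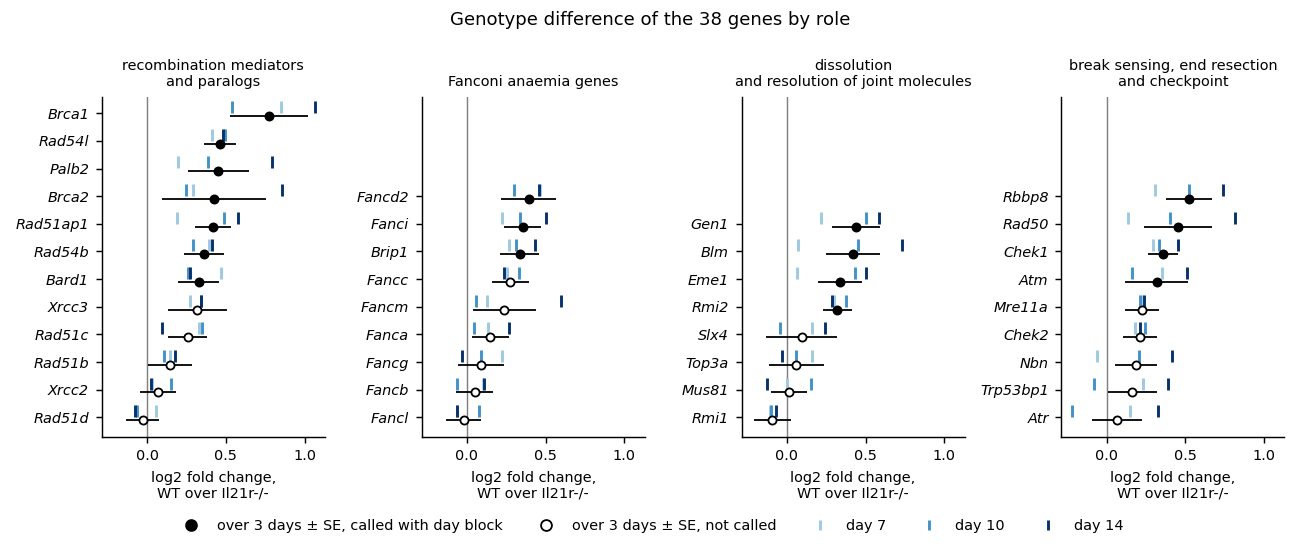
Log2 fold change of each of the 38 genes, WT over Il21r-/-, by role. Circles are the additive fit over 3 days with its standard error, filled for the 18 genes called with the day block, and ticks are the 3 single days. All but Rad51d, Fancl and Rmi1 lie above 0 over 3 days.

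Among the mediators, Brca1 differed most. Brca1 (chr11:101488761-101551955, GRCm38, minus strand) encodes the ubiquitin ligase that commits a break to recombination. Its level per length, in RPKM (CPM divided by the length of the gene in kilobases), was 3.43, 5.93 and 5.97 in WT and 1.90, 4.09 and 2.86 in Il21r-/- on days 7, 10 and 14. WT was higher on each day, but WT on day 7 was below Il21r-/- on day 10, so the groups overlapped. The log2 fold change was 0.81 (SE 0.11, adjusted p = 2.15e-06), a fold of 1.76, and 0.77 (SE 0.25, adjusted p = 0.114) in the additive fit. Single days gave 0.85, 0.54 and 1.06. It was called with the block whichever library was left out.

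Bard1, the partner that BRCA1 needs to be stable, was at 4.72, 5.63 and 5.56 RPKM in WT and 3.41, 4.70 and 4.61 in Il21r-/-. Every WT library was above every Il21r-/- library (log2 fold change 0.33, SE 0.10, adjusted p = 0.0202). Brca2, which acts on resected ends, had the lowest level of all members, 0.556, 1.29 and 1.21 RPKM in WT and 0.455, 1.09 and 0.670 in Il21r-/-. Its largest genotype gap was on day 14, and over 3 days the log2 fold change was 0.47 (SE 0.15, adjusted p = 0.0196). Palb2, which bridges BRCA1 and BRCA2, was at 2.05, 2.96 and 2.87 RPKM in WT and 1.79, 2.27 and 1.66 in Il21r-/- (log2 fold change 0.46, SE 0.15, adjusted p = 0.0237). Both Brca2 and Palb2 were higher in WT on each day, with overlap across days.

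Rad54l (chr4:116094261-116123700, minus strand) encodes a motor protein that acts during strand invasion. It was at 15.9, 18.0 and 16.8 RPKM in WT and 12.0, 12.8 and 12.0 in Il21r-/-, so the groups did not overlap and the gap was similar on each day (log2 fold changes of 0.41, 0.49 and 0.48). It was the member called by the additive fit (log2 fold change 0.46, SE 0.10, adjusted p = 0.0345) and was called with the block whichever library was left out. In the additive fit the call was kept when the Il21r-/- library of day 10 was left out and lost without any other library. Exons of Rad54l share 15.4% of their bases with Lrrc41 on the opposite strand, which itself was at -0.20 (SE 0.11, adjusted p = 0.368 in the additive fit). Its relative Rad54b was at 1.70, 2.08 and 2.50 RPKM in WT and 1.30, 1.70 and 1.89 in Il21r-/- (log2 fold change 0.36, SE 0.12, adjusted p = 0.0297). Rad54b shares 35.9% of its exon bases with other genes, mainly Fsbp on the same strand, so its counts are uncertain. Rad51ap1, whose product stimulates strand pairing, was at 20.2, 24.2 and 29.3 RPKM in WT and 17.7, 17.3 and 19.6 in Il21r-/-, without overlap (log2 fold change 0.42, SE 0.10, adjusted p = 0.00231).

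The paralogs Rad51b, Rad51c, Rad51d, Xrcc2 and Xrcc3, which act in strand pairing, were not called in either fit. Their log2 fold changes with the block were 0.32 for Xrcc3, 0.26 for Rad51c, 0.14 for Rad51b, 0.070 for Xrcc2 and -0.027 for Rad51d, with standard errors of 0.10 to 0.15. Rad51d was at 4.24, 4.07 and 3.82 RPKM in WT and 4.08, 4.26 and 4.02 in Il21r-/-.

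Compared by level per length, averaged over the 6 libraries, the 38 genes spanned 0.880 RPKM for Brca2 to 28.4 RPKM for Fancl. After Fancl came Rad51ap1 at 21.4 RPKM, Chek1 at 18.0, Rmi2 at 15.4, Mre11a at 15.1, Rad54l at 14.6, Mus81 at 14.2 and Fanci at 10.7, and the other 30 were below 10 RPKM. Next above Brca2 were Rad54b at 1.86 RPKM, Palb2 at 2.27 and Atr at 2.73. Genes called with the block, such as Rad51ap1 and Brca2, and genes not called, such as Fancl and Atr, stood at both ends of this range.

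**Figure D2:**
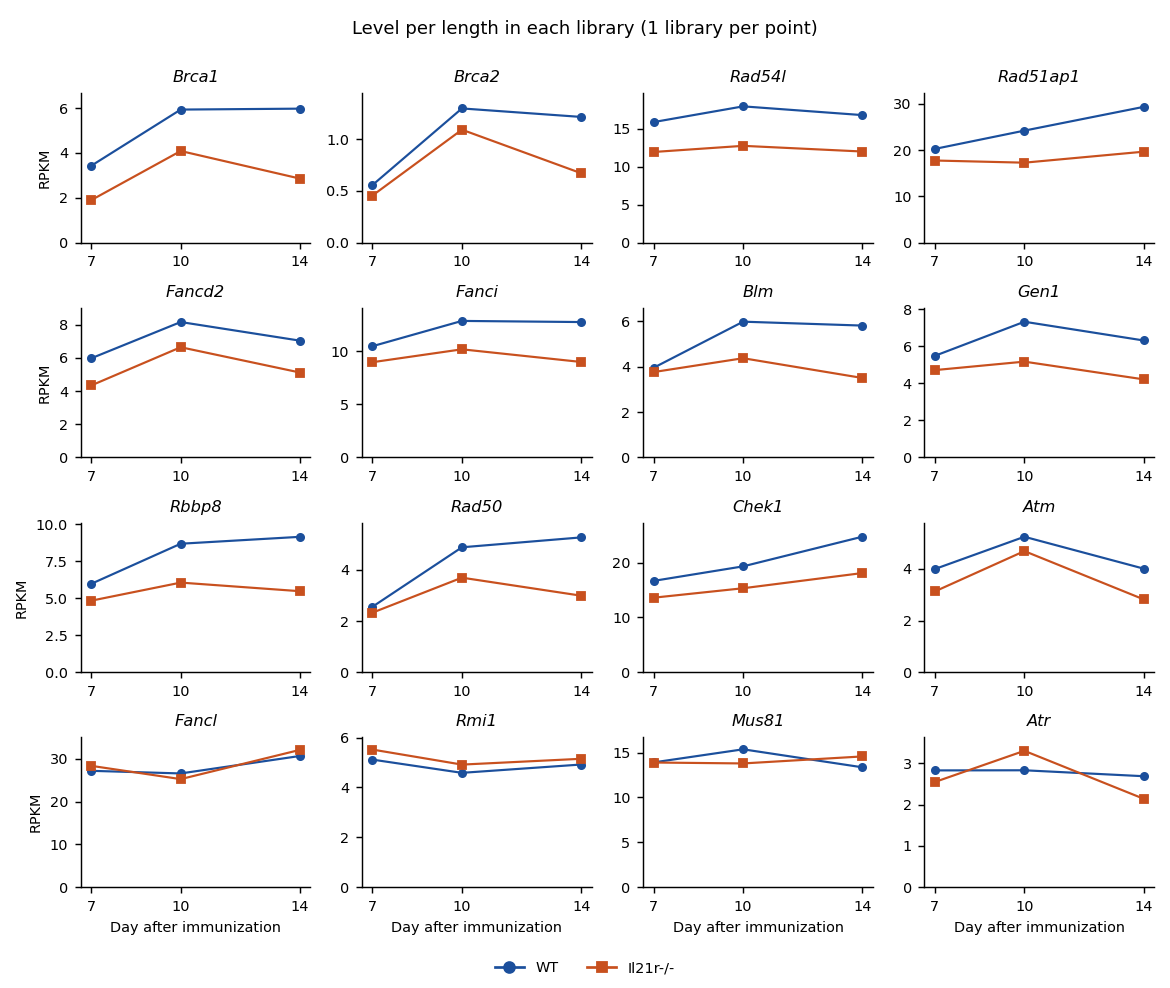
Level per length (RPKM) of 16 of the genes by day, 1 library per point, WT as circles and Il21r-/- as squares, each axis from 0. Brca1 and Rbbp8 are higher in WT on each day, whereas lines of Fancl, Mus81 and Atr cross.

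Of the Fanconi genes, the 3 that were called are FANCD2, FANCI and the helicase BRIP1 (FANCJ). Fancd2 was at 5.97, 8.16 and 7.03 RPKM in WT and 4.34, 6.64 and 5.12 in Il21r-/-, higher in WT on each day with overlap across days (log2 fold change 0.40, SE 0.10, adjusted p = 0.00372). Fanci, which pairs with FANCD2, was at 10.5, 12.8 and 12.7 RPKM in WT and 8.97, 10.2 and 8.99 in Il21r-/-, without overlap (log2 fold change 0.35, SE 0.09, adjusted p = 0.00536). It shares 16.0% of its exon bases with Polg on the opposite strand, whose own log2 fold change was 0.079 (adjusted p = 0.818 in the additive fit). Brip1 was at 4.59, 5.55 and 5.18 RPKM in WT and 3.81, 4.47 and 3.83 in Il21r-/-, also without overlap (log2 fold change 0.34, SE 0.10, adjusted p = 0.0132).

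The genes of the Fanconi core complex, which attaches the ubiquitin, and Fancm, which recruits it, were not called. Fancl, the ligase subunit of that complex, had the highest level of the 38, at 27.2, 26.6 and 30.7 RPKM in WT and 28.4, 25.3 and 32.1 in Il21r-/-, and its direction changed between days. Fanca and Fancc did not overlap between the groups, at log2 fold changes of 0.15 and 0.28 with the block, while Fancb and Fancg were at 0.049 and 0.092. Of their exon bases, Fancc shares 18.6%, Fancl 13.7% and Fanca 10.5% with other genes, so their counts are uncertain. Fancm was at 0.26, from 0.13 and 0.055 on days 7 and 10 and 0.60 on day 14. The median of the 9 Fanconi genes was 0.24 over 3 days.

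Among genes that take joint molecules apart, Blm and Rmi2 of the dissolving complex and the nuclease genes Eme1 and Gen1 were called. Blm encodes the helicase lost in Bloom syndrome. It was at 3.95, 5.98 and 5.80 RPKM in WT and 3.76, 4.37 and 3.50 in Il21r-/-, so that the gap was small on day 7 and wide on day 14 (log2 fold change 0.42, SE 0.12, adjusted p = 0.00997). Gen1 was at 5.49, 7.33 and 6.32 RPKM in WT and 4.72, 5.18 and 4.22 in Il21r-/-, without overlap (log2 fold change 0.43, SE 0.12, adjusted p = 0.00604). Rmi2 was at 16.1, 17.5 and 17.7 RPKM in WT and 13.0, 13.5 and 14.5 in Il21r-/-, without overlap (log2 fold change 0.32, SE 0.09, adjusted p = 0.00742). Eme1 was at 6.13, 8.16 and 8.26 RPKM in WT and 5.86, 6.05 and 5.84 in Il21r-/-, also without overlap (log2 fold change 0.33, SE 0.12, adjusted p = 0.0461). Eme1 shares 10.7% of its exon bases with opposite-strand genes, among them Lrrc59, which was itself called higher in WT with the block (log2 fold change 0.39, adjusted p = 0.000401), so reads of Lrrc59 in the Eme1 count cannot be told apart without strand.

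Of the other genes of this role, Rmi1 was at 5.11, 4.58 and 4.92 RPKM in WT and 5.52, 4.91 and 5.15 in Il21r-/-, lower in WT on each day and not called. Mus81, the partner of EME1, was at 13.9, 15.4 and 13.4 RPKM in WT and 13.9, 13.8 and 14.6 in Il21r-/-, and Top3a and the scaffold gene Slx4 were at log2 fold changes of 0.064 and 0.12 with the block. Within each library the ratio of Rmi2 to Rmi1 was 3.15, 3.83 and 3.60 in WT and 2.36, 2.75 and 2.82 in Il21r-/-. The ratio of Eme1 to Mus81 was 0.441, 0.530 and 0.618 in WT and 0.421, 0.439 and 0.400 in Il21r-/-. Both ratios were higher in every WT library than in any Il21r-/- library. The ratio of Blm to Top3a, of the same complex as Rmi1 and Rmi2, was 0.801, 0.983 and 1.36 in WT and 0.852, 0.748 and 0.803 in Il21r-/-, lower in WT on day 7 and higher on the other days. No test compared called genes with their partners. These ratios do not depend on the scaling of a library, and they were added after the values had been seen.

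**Figure D3:**
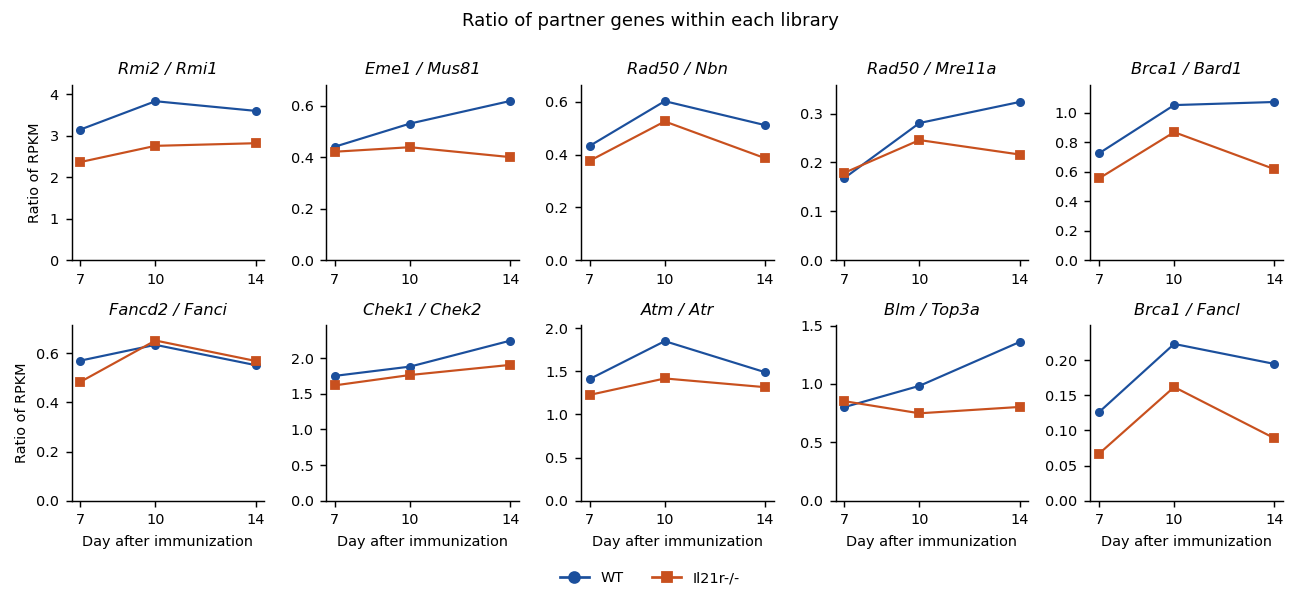
Ratio of the levels per length of partner genes within each library, by day, WT as circles and Il21r-/- as squares. Only in the panels of Rmi2 to Rmi1 and Eme1 to Mus81 do all WT libraries lie above all Il21r-/- libraries, and the Fancd2 to Fanci ratio crosses.

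Fancd2 to Fanci was 0.570, 0.635 and 0.552 in WT and 0.484, 0.652 and 0.569 in Il21r-/-, with no common direction. Brca1 to Bard1 was 0.726, 1.05 and 1.07 in WT and 0.556, 0.870 and 0.619 in Il21r-/-, higher in WT on each day with overlap across days. Chek1 to Chek2 was 1.75, 1.88 and 2.25 in WT and 1.62, 1.76 and 1.91 in Il21r-/-, and Atm to Atr was higher in WT on each day as well.

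In break sensing and resection, Rbbp8 and Rad50 were called. Rbbp8, on chromosome 18, encodes CtIP, which starts end resection. It was at 5.97, 8.68 and 9.14 RPKM in WT and 4.83, 6.05 and 5.47 in Il21r-/-, higher in WT on each day, with the largest gap on day 14 (log2 fold change 0.52, SE 0.11, adjusted p = 0.000546). Rad50 was at 2.56, 4.88 and 5.27 RPKM in WT and 2.33, 3.70 and 2.99 in Il21r-/- (log2 fold change 0.46, SE 0.12, adjusted p = 0.00715), and its gap went from 0.14 on day 7 to 0.82 on day 14 on the log2 scale. The other MRN genes were not called, though Mre11a was at 13.0 to 15.0 RPKM in Il21r-/- and 15.2 to 17.4 in WT, without overlap. The ratio of Rad50 to Mre11a was 0.168, 0.281 and 0.324 in WT and 0.179, 0.246 and 0.216 in Il21r-/-.

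Of the checkpoint kinases, Chek1 and Atm were called and Atr and Chek2 were not. Chek1, the kinase that holds S and G2 phase after replication stress, was at 16.7, 19.3 and 24.8 RPKM in WT and 13.6, 15.3 and 18.1 in Il21r-/-, rising with day in both genotypes and higher in WT on each day (log2 fold change 0.36, SE 0.09, adjusted p = 0.00272). Atm, the kinase that answers breaks, was at 4.0, 5.25 and 4.01 RPKM in WT and 3.13, 4.69 and 2.82 in Il21r-/- (log2 fold change 0.34, SE 0.10, adjusted p = 0.00930). Atr, which answers single-stranded DNA, was at 2.83, 2.84 and 2.69 RPKM in WT and 2.55, 3.31 and 2.14 in Il21r-/-, lower in WT on day 10 and higher on the other days. Trp53bp1, which protects ends from resection and favors end joining, was at 3.45, 4.15 and 4.48 RPKM in WT and 2.94, 4.40 and 3.41 in Il21r-/-, again with the opposite order on day 10, and it shares 15.0% of its exon bases with Tubgcp4. Chek2 did not overlap between genotypes and had a log2 fold change of 0.21 (SE 0.11, adjusted p = 0.167).

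On single days, each of which compares 1 library with 1 library, edgeR's likelihood ratio test called 0 members on day 7, 0 on day 10 and 0 on day 14, beside 1.07%, 3.1% and 3.28% of all genes in either direction. At an unadjusted p under 0.05 there were 0, 2 and 9 members, beside 606, 1190 and 1330 of the 11005 genes in either direction. DESeq2 called 0 members on each day. The members had a median log2 fold change of 0.21 on day 7, 0.26 on day 10 and 0.37 on day 14, where all genes were at 0.0033, -0.017 and -0.012. Members above 0 numbered 35, 32 and 32. With all genes tested put in 5 bins of equal size by gene length, 15 members lay in the bin of the longest genes and 0 in that of the shortest. The median of all genes in the bin of the longest was 0.081 on day 7, -0.13 on day 10 and 0.083 on day 14. Of the 6 members below 0 on day 10, 4 lay in that bin, Rad51d, Slx4, Atr and Trp53bp1. The part of gene length in the difference was not tested.

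A change of the gap with day did not pass the test. The difference in day trend between genotypes was called for 0 of the 38 by edgeR's quasi-likelihood test, beside 0.0% of all genes. At an unadjusted p under 0.05 it had 0 members, beside 118 of the 11005 genes. DESeq2 called 0 members. The block called 0 members, beside 31 of the 11005 genes. It had 2 members at an unadjusted p under 0.05, beside 525 of the 11005 genes. The steepest were Rad50 and Blm, at 0.098 and 0.092 on the log2 scale per day in favor of WT, with unadjusted p = 0.265 and 0.169, and they were the 2 under 0.05 with the block, at unadjusted p = 0.0249 and 0.0260 and adjusted p = 0.815 and 0.839. With the genotype held fixed, 29 of 38 members had a slope over days above 0. The trend was called for Chek1, at 0.070 per day (SE 0.016, adjusted p = 0.0491), beside 1.07% of all genes called as rising. That call was lost without any single library other than Il21r-/- of day 10. Slx4 had the steepest slope, 0.11 per day, and was not called.

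The members are set here beside lists of related genes, of which they are not part. Of 48 tested other genes of recombination and the Fanconi pathway, 16 were called higher in WT with the block and 0 higher in Il21r-/-, with a median log2 fold change of 0.17 over 3 days. Dmc1, the meiotic recombinase, and the nuclease gene Fan1 were below the limit. Genes of end joining, which seals ends without a copy, went in both directions. Of 21 tested, 3 were higher in WT with the block, namely Tdp1 (log2 fold change 0.36), Polq (0.54) and Lig4 (0.28), and 2 were higher in Il21r-/-, namely Polm (-0.32) and Shld1 (-0.29). Their median was 0.023, and 0 were called by the additive fit, with 6 at an unadjusted p under 0.05.

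Targets of p53, which the checkpoint kinases activate, lay on the other side, with 19 of 23 log2 fold changes below 0. In the additive fit 8 of 23 were called, all higher in Il21r-/-, and with the block 10 were higher in Il21r-/- and 1, Pmaip1, in WT. The median log2 fold change was -0.22. Sesn2 was at 6.96, 6.50 and 5.81 CPM in WT and 11.8, 13.2 and 11.7 CPM in Il21r-/- (log2 fold change -0.93, SE 0.14, adjusted p = 0.00705 in the additive fit). Ccng1 was at 175, 157 and 161 CPM in WT and 238, 242 and 288 CPM in Il21r-/- (log2 fold change -0.64, adjusted p = 0.0117). Sesn1, Plk2 and Btg2 were called as well, at -0.72, -0.80 and -0.76, and so was Phlda3, which had only 3 counts in WT on day 10. Sestrins, Btg2 and cyclin G1 restrain growth or division, and they also answer signals other than p53. Cdkn1a and Mdm2, the most used readouts of p53, were at 0.017 and 0.074 and were not called (adjusted p = 0.978 and 0.743), and were named after their values had been seen. Cdkn1a had only 35, 33 and 61 counts in WT and 21, 42 and 77 in Il21r-/-. Its log2 fold change (SE 0.24) is therefore imprecise, at 0.48, -0.25 and -0.11 on the single days.

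Genes of DNA replication and of mitosis were higher in WT as well. Of 43 replication genes 35 were called higher in WT with the block and 5 by the additive fit, among them Orc1, Rrm2, Pole2 and Ccne1, and 0 were higher in Il21r-/-. Their median log2 fold change was 0.38. Of 30 mitotic genes 26 were called higher in WT with the block and 1 by the additive fit, Nek2, with a median of 0.38 and 0 higher in Il21r-/-. Summed, the replication genes were at 8112, 9803 and 9722 CPM in WT and 6609, 7386 and 7557 CPM in Il21r-/-.

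**Figure D4:**
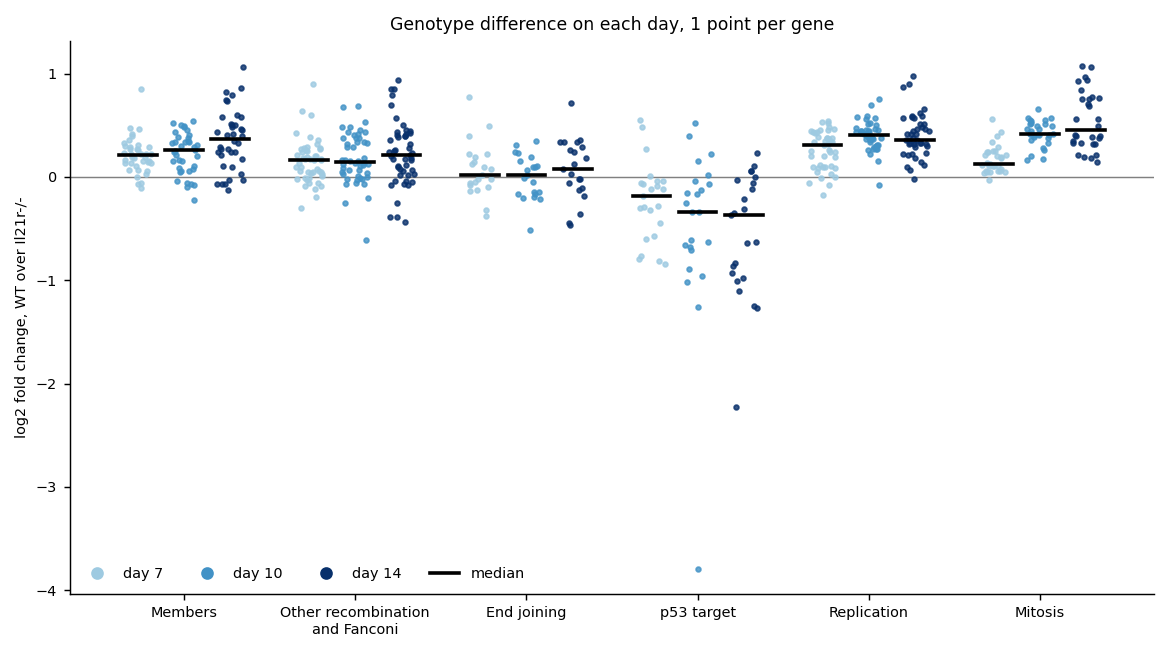
Log2 fold change of single genes, WT over Il21r-/-, on days 7, 10 and 14, for the 38 members and 5 lists of related genes. Points are genes and bars are medians, which for the members are 0.21, 0.26 and 0.37, and which lie below 0 for the p53 list on each day.

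When each member was divided by the summed CPM of the replication list in the same library, the median log2 ratio of WT to Il21r-/- was -0.089 on day 7, -0.15 on day 10 and 0.0054 on day 14. On this scale 3 members were higher in WT on all 3 days, Brca1, Rad54l and Rbbp8, 16 were lower on all 3 and 19 were mixed. Brca1 stood at 2.81, 4.02 and 4.08 per mille of the replication sum in WT and 1.91, 3.68 and 2.51 per mille in Il21r-/-, log2 ratios of 0.56, 0.13 and 0.70. Rad54l was at log2 ratios of 0.12, 0.085 and 0.12, and Rbbp8 at 0.010, 0.11 and 0.38. Fancl was at -0.36, -0.33 and -0.43. Divided by the mitotic list instead, the median log2 ratio was 0.041 on day 7, -0.16 on day 10 and -0.089 on day 14. Members higher in WT on this scale numbered 22, 7 and 14 on these days. On all 3 days 5 members were higher in WT, the same 3 with Rad51ap1 and Gen1, and 12 were lower. The part of cell cycle phase in the genotype difference of the members was not tested beyond these ratios.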

How the data were processed

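RNA-seq was done on NP-binding IgG1+ GC B cells. The authors aligned 100 bp single-end reads to mm10 with Rsubread, summarized them per gene with featureCounts and its inbuilt RefSeq annotation with technical replicates pooled, and deposited raw whole-number counts per gene. CASAVA 1.8.2 is named in the submitters' processing notes. The library kit does not keep strand, and the settings for strand and multi-mapping are not given in the sources used here. Samples were grouped by their labels. Symbols came from RefSeq for 25275 identifiers and GENCODE for 18 more, and overlaps of exons from GENCODE M21.

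The test left out genes with a negative aveLogCPM, Xist, genes of the Y chromosome and those of Ig variable regions. With R 4.3.3 and edgeR 4.0.16, TMM factors were computed, and genotype with a linear day was fitted (3 residual degrees of freedom) with robust quasi-likelihood tests. Genotype on each day was tested by likelihood ratio tests with dispersions from that model and a mean per day, and the difference in day trend by an interaction. The p-values were adjusted by Benjamini-Hochberg over 11005 genes at a threshold of 0.05, and a gene is called below it. Standard errors come from the fitted negative binomial model. The biological coefficient of variation was 13.1%, and sequencing depth limits the precision of low members such as Brca2. RPKM used the gene lengths of the count table.

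Day pairs the libraries by label. After the genotype mean was removed, libraries of the same day correlated across genes at 0.640, 0.413 and 0.645, and those of different days at or below -0.084. Removing the genotype mean makes values between days negative on average wherever those of the same day are positive. Any change with day that both genotypes share also gives positive values on the same day. These correlations therefore cannot show whether the libraries of a day are paired replicates. Fits with day as a replicate block are printed beside the results because the labels pair the libraries by day. Alternatives were DESeq2's size factors and Wald test (version 1.42.0), other filters on low counts, other day terms and leaving out each library. The block under each other alternative, the partner ratios, the 5 bins of gene length and the promoter windows were added after seeing the data. The procedure was tested on simulated counts. The 38 members, their roles and the gene lists were chosen with earlier results of these data known. Named with all library values were members called in any test, the 10 with the largest genotype difference, the highest and lowest by level, and the best known of each role. Of each related list at most 6 called genes were named, and some are not reported here. Promoters were searched over 300 bases and both strands. No protein sequences were used here.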

Additional observations from a re-analysis of the deposited data

How the results depend on the processing

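In the additive fit 1 member was called over 3 days. That count became 3 with no filter on low counts, 5 with DESeq2's Wald test and 18 with day as a replicate block, beside 1.67%, 2.89% and 9.33% of all genes called higher in WT, and ran from 0 to 19 (0.218% to 8.47%) when 1 library was left out. With the block it was 18 under DESeq2 size factors and both other filters, and 2 to 16 (2.94% to 7.88%) when 1 library was left out. A left-out library takes its whole day out of the blocked comparison. For single days, dispersions with day as a factor gave 1 call on day 7 (Brca1) and 8 on day 14, beside 0.754% and 3.51% of all genes called higher in WT. The linear day term gave 3 on day 10, beside 2.05%. Leaving out a library gave 0 to 1 on day 7, 0 on day 10 and 0 to 3 on day 14. The share of all genes is not printed beside these last counts, so they are not read as a result about the members. The day trend was called for 0 members with at least 10 counts in every library, for 2 with DESeq2 (2.58% of all genes rising) and for 0 to 9 (0.0% to 8.3%) when 1 library was left out. The difference in day trend stayed at 0 calls in all alternatives run, the replicate block included. The number of members higher in WT on all 3 days was 27 under both scalings, and the median against the replication list was -0.059 and against the mitotic list -0.051.

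All 18 members called with the block kept 1 direction in every alternative run. Of the 38, 31 did so in the additive fit. The other 7 changed sign when 1 library was left out, with log2 fold changes from -0.056 to 0.0016 for Rad51d, -0.018 to 0.21 for Fancg, -0.10 to 0.061 for Fancl, -0.082 to 0.20 for Top3a, -0.046 to 0.085 for Mus81, -0.088 to 0.37 for Slx4 and -0.079 to 0.24 for Atr. The causes were not tested. On single days DESeq2 kept the linear day term, since a mean per day leaves it too few libraries.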
